A study of Mus musculus with 6 samples.

Results

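Complement components and regulators are described here as 9 genes, chosen by name: the components C3, C4b, Cfb and Hc, the soluble regulators Cfi and Serping1, and the membrane regulators Cd55, Cd46 and Cd59a. All 9 had 1 row each among the 22239 genes of the table. RNA came from sorted lung epithelial cells of mice aged 8 weeks, after depletion of CD31 and CD45 cells, and was sequenced in bulk. Bronchioalveolar stem cells (BASC), a rare population at the junction of bronchiole and alveolus, were CCSP-mCherry+/SPC-YFP+. AT2 cells (alveolar type 2, the makers of surfactant) were SPC-YFP+, and Club cells, which secrete protein into the bronchioles, were CCSP-mCherry+. Each population had 2 samples. The labels give neither strain nor sex, and do not say whether replicates were separate animals, so the p-values cover the spread between samples, which may be technical. The CCSP reporter marks the gene Scgb1a1 and the SPC reporter the gene Sftpc, so the populations are defined by activity of these genes.

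Complement is a cascade of serum proteins that tags microbes and damaged cells. The classical and lectin routes cut C4 and C2, the alternative route uses factor B, and all meet at C3, whose activation leads to cleavage of C5 and to the membrane attack complex. Host cells carry regulators on their surface that dismantle the enzymes of the cascade or block the final pore. The liver makes most of the circulating proteins, and epithelia, including those of the lung, make part of them locally.

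The deposited values are read counts that the authors normalised and rounded to whole numbers, called normalised counts below. Depth was estimated, from gaps between low whole numbers, at 10122640 to 18205636 reads per sample. For a gene listed at 0, an expected count of up to 3 reads is allowed, equal to 2.29 to 4.02 normalised counts by sample, a floor for counting error only. The reporter genes followed the sort labels. Sftpc reached 290809 and 307458 normalised counts in the BASC samples, 301267 and 373742 in the AT2 samples, and 240 and 224 in the Club samples. Counts of Scgb1a1 were 43993 and 58791 for the BASC samples, 413 and 302 for the AT2 samples, and 751642 and 760675 for the Club samples. Markers of ciliated cells, 7 of 7 with a row, summed to 508 and 295 in the BASC samples, 265 and 66 in the AT2 samples, and 7532 and 7122 in the Club samples. Endothelial markers, 5 of 9 with a row, summed to between 61 and 106 in all 6 samples. In bulk samples, fewer cells of a type and less RNA per cell cannot be told apart.

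Promoters of the 3 members with the highest counts, Hc, C3 and Cd55, are printed because these genes each followed a different pattern over the populations. RefSeq promoters (GRCm38.p6, 250 bases before to 50 after the annotated start, on the strand of the gene) were matched for 5 of the 9 members. Capitals mark letters that match any of 8 motif searches on both strands: GGG and CC with any 5 bases between them for NF-kB, TTGCNNAA for C/EBP, TTCNNNGAA for STAT, TTTC and TTTC with any 2 bases between them for the interferon element, TGTTTAC for FOXA, CACTTGA and CTCAAG for NKX2-1, and TATAAA for the TATA box.
Hc, chr2:35061363-35061662, minus strand: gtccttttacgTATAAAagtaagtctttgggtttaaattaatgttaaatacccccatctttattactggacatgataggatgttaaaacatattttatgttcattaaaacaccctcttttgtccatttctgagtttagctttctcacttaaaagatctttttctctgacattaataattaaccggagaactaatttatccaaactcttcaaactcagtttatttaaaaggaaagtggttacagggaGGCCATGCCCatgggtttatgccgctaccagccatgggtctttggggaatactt
C3, chr17:57228087-57228386, minus strand: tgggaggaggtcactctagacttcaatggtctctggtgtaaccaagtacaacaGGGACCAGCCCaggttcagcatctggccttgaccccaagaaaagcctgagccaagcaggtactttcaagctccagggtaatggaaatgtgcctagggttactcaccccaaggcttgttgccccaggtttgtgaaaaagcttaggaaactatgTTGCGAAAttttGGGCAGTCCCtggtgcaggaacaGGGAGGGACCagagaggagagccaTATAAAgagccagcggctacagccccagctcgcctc
Cd55, chr1:130462695-130462994, minus strand: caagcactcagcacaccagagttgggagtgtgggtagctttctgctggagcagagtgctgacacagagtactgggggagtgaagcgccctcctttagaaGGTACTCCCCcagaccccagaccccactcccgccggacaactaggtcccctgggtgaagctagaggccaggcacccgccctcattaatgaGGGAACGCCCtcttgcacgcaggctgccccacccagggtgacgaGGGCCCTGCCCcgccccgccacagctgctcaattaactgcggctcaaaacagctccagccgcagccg
The Hc promoter was poor in GC, at 34.7% with 3 CpG, against 53.3% with 3 CpG for C3 and 63.3% with 12 CpG for Cd55, while the median of all 32851 promoters was 52.7% with 7 CpG. In Hc, the letters TATAAA began at position -239 from the start and the NF-kB letters at -4. In C3, the C/EBP letters began at -45, TATAAA began at position 15 after the annotated start, and the NF-kB letters stood at 3 places, with matches on both strands overlapping at 2 of them. In Cd55, marked letters belonged to the NF-kB search alone, also at 3 places with both strands overlapping at 2 of them. The NF-kB letters are loose and occurred in 50.8% of all promoters of this length. The C/EBP letters occurred in 10.8% and TATAAA in 13.6%. No other motif of the search matched these 3 promoters, which says only that the letters are not in these windows.

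Hc and C3 had opposite patterns. Hc encodes complement C5, whose cleavage releases the inflammatory peptide C5a and starts the membrane attack complex. It lies on chromosome 2 from 34983331 to 35061438 (GRCm38, minus strand). The BASC samples held 74011 and 74648 normalised counts of Hc, the AT2 samples 86014 and 82856, and the Club samples 396 and 445. All 4 BASC and AT2 samples stood far above both Club samples. Hc was 177-fold higher in BASC than in Club cells, with a log2 fold change of 7.46 ± 0.10 (SE, n = 2 in each population; limma adjusted p = 6.16e-08). In AT2 it was 201-fold higher than in Club cells (7.65 ± 0.10, limma adjusted p = 5.17e-08). Between BASC and AT2 the samples did not overlap, but the difference, at a log2 fold change of -0.18 ± 0.10 with a 95% interval from -0.42 to 0.05, was not called (limma adjusted p = 0.498).

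C3 is the component on which all routes meet, and its large fragment coats targets for uptake. It lies on chromosome 17, from 57203970 to 57228136, minus strand. C3 reached 5573 and 5692 normalised counts in the BASC samples, 5880 and 5653 in the AT2 samples, and 28793 and 29212 in the Club samples. The Club samples were the highest, and the BASC and AT2 samples overlapped. C3 was 5.15-fold lower in BASC than in Club cells (log2 fold change -2.36 ± 0.09, limma adjusted p = 1.74e-05), and 5.03-fold lower in AT2 than in Club cells (-2.33 ± 0.09, limma adjusted p = 9.15e-06). BASC and AT2 differed by -0.03 ± 0.09 on the log2 scale, with a 95% interval from -0.25 to 0.18 (limma adjusted p = 0.923). The mean C3 level was 19.4% of the Club level in BASC and 19.9% of it in AT2. Where C3 was high, in Club cells, the ciliated sum was high too, and macrophage and leukocyte markers summed to 613 and 859 in BASC samples, 582 and 792 in AT2 samples, and 1192 and 1252 in Club samples, with 6 of 12 having a row. Cd14 held most of the sum in Club samples, and Fcer1g and Spi1 were listed at 0 there. Cd68 went the other way, with 114 and 132 in Club samples against 234 and 274 in BASC samples and 236 and 280 in AT2 samples. Csf1r had 37 and 87 in Club samples, the same as in AT2 samples, and 118 and 81 in BASC samples. The part of these cells in the C3 values was not tested.

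**Figure D1:**
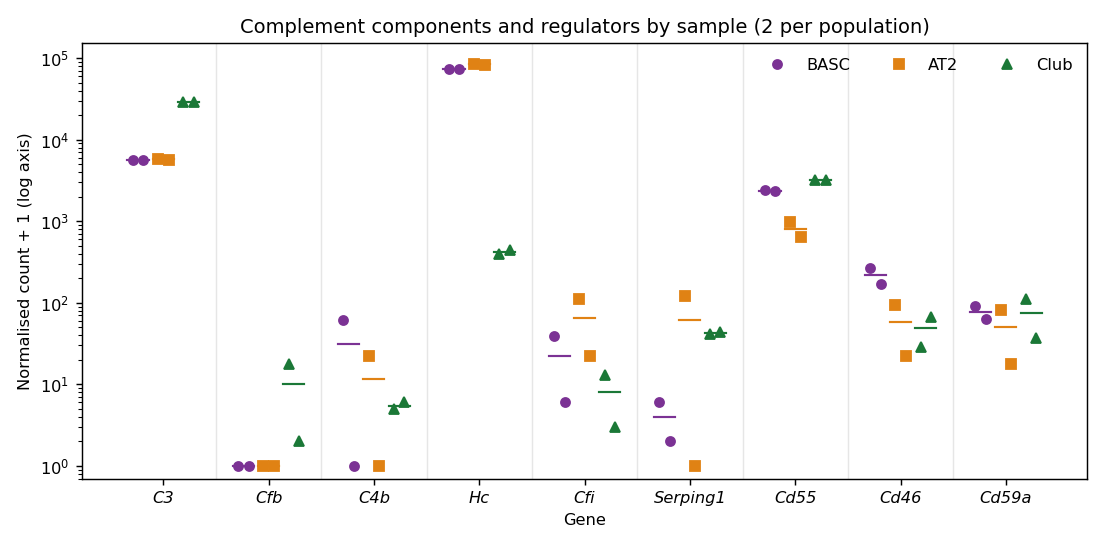
Normalised counts plus 1 of the 9 members in every sample, on a log axis, with BASC as circles, AT2 as squares and Club cells as triangles; short lines are means of the 2 samples. Hc is between 74011 and 86014 in BASC and AT2 and at 396 and 445 in Club cells, C3 is highest in Club cells, and Cd55 is lowest in AT2.

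Per length of exon, Hc and C3 changed places between the populations. Counts of Hc were 11813 and 11915 per kb of exon for the BASC samples, 13729 and 13225 for the AT2 samples, and 63.2 and 71.0 for the Club samples. The BASC samples held 1084 and 1107 per kb of C3, the AT2 samples 1143 and 1099, and the Club samples 5598 and 5680. The per-kb level of Hc was 10.9 and 10.8 times that of C3 in the BASC samples and 12.0 times in both AT2 samples. In the Club samples, the per-kb level of C3 was 88.6 and 80.0 times that of Hc. Among 14861 protein-coding genes ranked by this per-kb level, Hc stood at rank 18 in both BASC samples, ranks 17 and 21 in AT2, and ranks 6031 and 5536 in Club cells. C3 stood at rank 226 in both BASC samples, ranks 205 and 238 in AT2, and rank 31 in both Club samples. C3 and C5 are related proteins, and 0 of the 6260 runs of 50 bases in Hc transcripts occurred in C3.

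**Figure D2:**
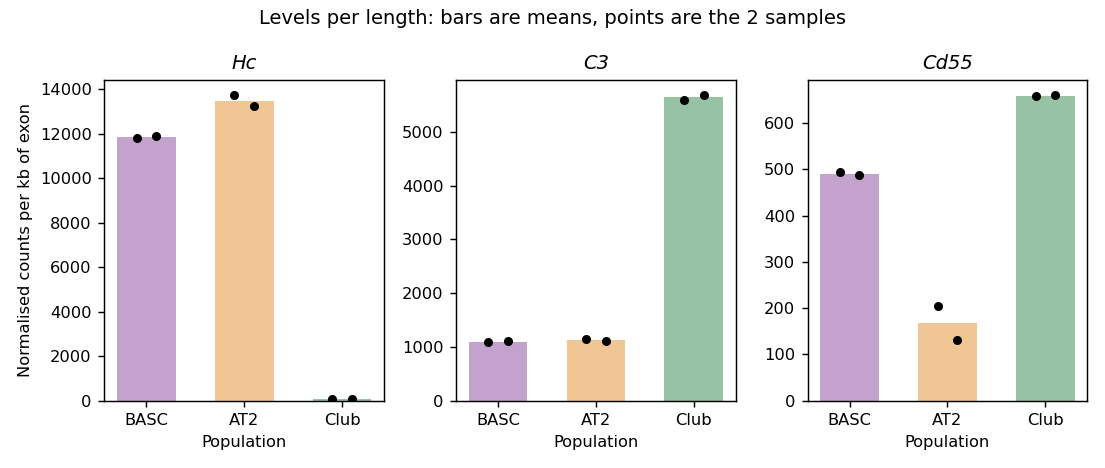
Normalised counts per kb of exon for Hc, C3 and Cd55 in BASC, AT2 and Club cells, each panel with its own axis starting at 0; bars are means and points are the 2 samples. Hc averaged 11864 in BASC and 13477 in AT2 against 67.1 in Club cells, while C3 averaged 5639 in Club cells.

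The other components were near the floor. Cfb encodes factor B, the protease of the alternative pathway convertase, and was listed at 0 in both BASC and both AT2 samples, with 17 and 1 normalised counts in Club cells. Cfb lies on chromosome 17 from 34856374 to 34862518, minus strand, and C4b lies on the same strand from 34728380 to 34743882. Cfb failed the filter for low values (at least 10 in at least 2 samples) and was not tested. C4b, which supplies C4 to the classical and lectin convertase, reached 60 and 0 in the BASC samples, 21 and 0 in the AT2 samples, and 4 and 5 in the Club samples. A single BASC and a single AT2 sample held most of its counts, and the groups overlapped. C4b was not called in any comparison (limma adjusted p from 0.922 to 0.965), with 95% intervals on the log2 scale as wide as -4.47 to 5.94 for BASC against AT2. Of the 50-base runs in C4b transcripts, 34.6% also occurred in C4a, its near-identical neighbour, and reads may have been divided wrongly between the pair. Counts of C4a were 1 and 0 for the BASC samples, 0 and 20 for the AT2 samples, and 17 and 4 for the Club samples.

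The soluble regulators were also low. Cfi encodes factor I, the protease that cuts C3b and C4b with the help of cofactors, and lies on chromosome 3 from 129836737 to 129875332, plus strand. The BASC samples held 38 and 5 normalised counts of it, the AT2 samples 109 and 21, and the Club samples 12 and 2. Both AT2 samples were above both Club samples, and the BASC samples overlapped with each of the other populations. No difference in Cfi was called, and the closest was AT2 against Club cells at a log2 fold change of 2.98 ± 1.44 (limma adjusted p = 0.220). Serping1 encodes the C1 inhibitor, which inactivates C1r, C1s and the lectin pathway proteases, and lies on chromosome 2 from 84765387 to 84775444, minus strand. It reached 5 and 1 in the BASC samples, 121 and 0 in the AT2 samples, and 40 and 43 in the Club samples. The AT2 samples stood at opposite ends, so that AT2 enclosed both other populations, while both BASC samples were below both Club samples. Serping1 was not called in any comparison (limma adjusted p from 0.364 to 0.792). In the AT2 sample with 121, replicate 1, markers of fibroblasts and mesothelium were also present: of 7 such genes with a row, 6 were above 3 reads and summed to 289, against 1 above it and a sum of 14 in AT2 replicate 2. AT2 replicate 1 was also the higher AT2 sample for Cfi, C4b, Cd55, Cd46 and Cd59a, and narrowly for Hc and C3. The list summed to 37 and 40 in BASC and 1860 and 1784 in Club cells, where Fn1 and Msln held most of it, and its part in the values of these genes was not tested.

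Cd55 was the only member called between BASC and AT2. It encodes decay-accelerating factor, a membrane protein that takes apart the C3 and C5 convertases on the cell's own surface, and lies on chromosome 1 from 130439027 to 130462744, minus strand. Counts of Cd55 were 2395 and 2366 for the BASC samples, 992 and 635 for the AT2 samples, and 3193 and 3203 for the Club samples. The 3 populations did not overlap, with AT2 lowest and Club cells highest. In BASC, Cd55 was 2.93-fold higher than in AT2, at a log2 fold change of 1.58 ± 0.21 with a 95% interval from 1.09 to 2.07 (limma adjusted p = 0.0272). It was 3.93-fold lower in AT2 than in Club cells (-2.01 ± 0.21, limma adjusted p = 0.000791). The ciliated, fibroblast and mesothelial sums given above were also highest in the Club samples, and their part in the Cd55 values was not tested. The difference between BASC and Club cells, -0.43 ± 0.21 with an interval from -0.92 to 0.06, was not called (limma adjusted p = 0.270). The call between BASC and AT2 was lost without BASC replicate 1 (adjusted p = 0.190) or BASC replicate 2 (adjusted p = 0.257), and in a fit without a trend (adjusted p = 0.182), while over the 17 alternatives the adjusted p ranged from 0.00556 to 0.257. The log2 fold change stayed between 1.26 and 1.90 in these alternatives, with 1.26 when AT2 replicate 2 was left out and 1.90 when AT2 replicate 1 was left out, both called.

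A second copy, Cd55b, was counted separately. The BASC samples held 35 and 38 normalised counts of it, the AT2 samples 18 and 16, and the Club samples 44 and 39, which is the same order as Cd55 at a far lower level, and no difference was called (limma adjusted p from 0.362 to 0.924). Of the 50-base runs in Cd55b transcripts, 23.0% also occurred in Cd55, so part of its reads may belong to Cd55. Only 8.0% of the runs of Cd55 occurred in Cd55b.

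Cd46 and Cd59a are the other membrane regulators. CD46 is a cofactor for factor I, and in mice its gene is known for expression in testis, while the related Cr1l (Crry) takes the cofactor role on most cells. Cd46 reached 269 and 169 normalised counts in the BASC samples, 94 and 21 in the AT2 samples, and 28 and 67 in the Club samples. Both BASC samples stood above all 4 others, while AT2 and Club cells overlapped. The log2 fold change was 2.23 ± 0.85 against AT2 (limma adjusted p = 0.321) and 2.27 ± 0.85 against Club cells (adjusted p = 0.149), so neither difference was called, although both had an unadjusted p under 0.05 (0.0328 and 0.0305). Cr1l, next to it on chromosome 1 (195097382 to 195131561, against 195036826 to 195092249 for Cd46), reached 358 and 360 in the BASC samples, 200 and 254 in the AT2 samples, and 215 and 282 in the Club samples. The BASC samples were again highest, and no difference was called (limma adjusted p from 0.312 to 0.822). Transcripts of Cd46 and Cr1l shared 0 of 7646 runs of 50 bases.

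Cd59a encodes the mouse CD59 antigen, which blocks the assembly of the membrane attack complex, and lies on chromosome 2 from 104095801 to 104115354, plus strand. The BASC samples held 90 and 62 normalised counts of it, the AT2 samples 81 and 17, and the Club samples 112 and 36. The 3 populations overlapped and no difference was called (limma adjusted p from 0.665 to 0.919). Of its 50-base runs, 3.9% occurred in the paralog Cd59b, which had no row among the deposited values. Among Cd55, Cd46, Cd59a and Cr1l, Cd55 had the highest mean per-kb level in each population, with 491 for BASC, 168 for AT2 and 659 for Club cells. Cd46 had 28.8, 7.56 and 6.25 and Cr1l had 34.7, 21.9 and 24.0 in the same order of populations, and Cd59a had 42.0, 27.1 and 40.9. The length used is the union of all annotated exons, 10349 bases for Cr1l, 7603 for Cd46 and 1811 for Cd59a. By counts, Cr1l stood above Cd59a in every sample, so their order per kb depends on this length.

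**Figure D3:**
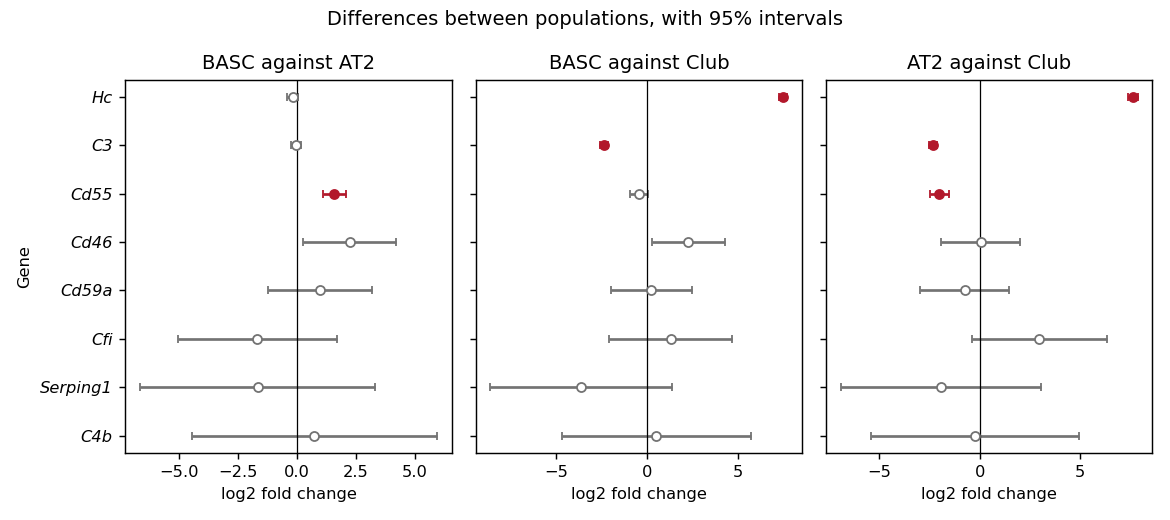
Log2 fold changes of the 8 tested members in each comparison with 95% intervals from the limma fit; filled red points were called. Hc and C3 were called against Club cells only, Cd55 was called between BASC and AT2 and between AT2 and Club cells, and the low genes have intervals several units wide.

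Of 9 members, 8 passed the filter, and 1 to 3 of these were called in each comparison. In BASC against AT2, 1 was higher (Cd55), 0 were lower and 7 were not called, where 0.553% of all 17721 genes tested were called higher, 0.0790% lower and 0.632% in either direction. At an unadjusted p under 0.05, limma gave 2 members higher and 0 lower. In BASC against Club cells, 1 was higher (Hc) and 1 lower (C3), against 11.2% of all genes called in either direction, 5.77% higher and 5.42% lower. In AT2 against Club cells, 1 was higher (Hc) and 2 were lower (C3 and Cd55), against 18.1% of all genes in either direction, 8.42% higher and 9.71% lower. The median log2 fold change of the 8 tested members was 0.35, 0.37 and -0.49 in these comparisons, against 0, -0.10 and -0.10 over all genes tested. With an even number of members, the median lies midway between the middle genes. C4b, which was near the floor, was among these in each comparison, and none of them was called. The medians therefore do not show a shared shift of the members. The comparisons share samples. The depositors' annotation put all 9 members under the KEGG pathway of complement and coagulation cascades, with 52 genes of the table, and 7 of them under the Gene Ontology term complement activation.

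The position of BASC between the other populations differed among complement genes. For genes called between AT2 and Club cells whose higher mean of the pair was 100 or more, the unlogged BASC level was placed on a scale from 0 at the AT2 mean to 100 at the Club mean. C3 stood at -0.83 and -0.32 in the BASC samples, and Hc at 12.4 and 11.6. Cd55 stood at 66.3 and 65.1, on the Club side of the middle. At the BASC mean, C6, C1ra, Cpm and Clu stood between -9.2 and 15.6, near the AT2 end, C5ar2 at 21.2 and Cpn1 at 62.5. Mbl1 stood at 41.0 and -61.0 in the BASC samples and C5ar2 at 51.5 and -9.1, so positions from 2 samples can lie far apart. For comparison, all 10 AT2 markers were called between AT2 and Club cells and had a median of 11.3, from -0.12 for Sftpa1 to 37.0 for Lamp3. Of 10 Club markers, 8 were called and had a median of 7.81, from 0.51 for Muc5b to 26.6 for Cbr2. The other Club markers, not called and left out of the median, were Nupr1 at 57.5 and Krt15 at 2.16. These positions are a description, and no test of their differences was run.

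**Figure D4:**
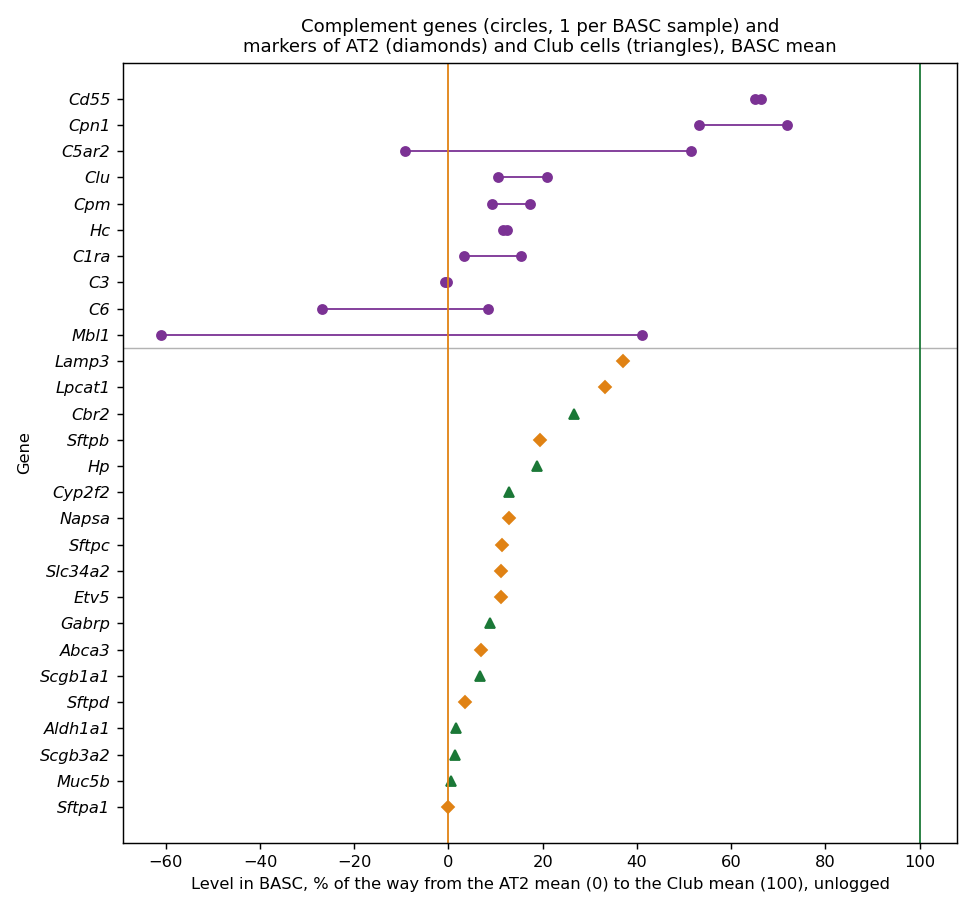
Level of complement genes and cell markers in BASC as a percentage of the way from the AT2 mean (0) to the Club mean (100), on unlogged values; circles joined by a line are the 2 BASC samples, diamonds are AT2 markers and triangles Club markers at the BASC mean. Only markers called between AT2 and Club cells are shown. Cd55 (66.3 and 65.1) and Cpn1 (71.8 and 53.2) lie beyond the middle in both samples, C5ar2 (51.5 and -9.1) does so in 1, and C3 lies at the AT2 level.

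Genes with profiles most like these members were sought among 2169 protein-coding genes with a mean of at least 1000, by the root mean square difference of centred log2 values over the 6 samples. Closest to Hc were Etv5, an ETS transcription factor of AT2 cells (0.26), Napsa, the aspartic protease that processes surfactant protein B (0.27), and Mlc1 (0.39). Closest to C3 were Ldhb, a lactate dehydrogenase subunit (0.13), Trim3 (0.25) and Col4a5, a basement membrane collagen chain (0.26). Closest to Cd55 were Muc4, a membrane mucin (0.12), Lrrc45 (0.27) and Aldh1a7, an aldehyde dehydrogenase (0.29). Muc4 reached 8340 and 8371 normalised counts in the BASC samples, 4303 and 2526 in the AT2 samples, and 12066 and 10871 in the Club samples, so its lowest sample was the same as for Cd55. With 6 samples in 3 groups, many genes can lie close, and these distances are a description.

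The rest of the pathway was taken from a list of 53 other complement genes, of which 24 had a row and 21 passed the filter. In BASC against AT2, limma called 0 of the 21, where 0.632% of all 17721 genes tested were called. At an unadjusted p under 0.05, 3 of the 21 were higher and 0 lower, against 1257 and 1079 of all genes tested. All 3 were low genes listed at 0 in both AT2 samples, with BASC means from 18.5 to 49.5 normalised counts. The median log2 fold change of the 21 was 0.21. In BASC against Club cells, 5 were higher and 2 lower, with a median of 0.54, where 5.77% of all genes tested were called higher and 5.42% lower. In AT2 against Club cells, 5 were higher and 5 lower, with a median of -0.12, where 8.42% of all genes were called higher and 9.71% lower. The medians over all genes tested were those given for the members.

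Among recognition genes, Mbl1, a mannose-binding lectin that starts the lectin pathway, reached 477 and 1033 normalised counts in the BASC samples, 753 and 648 in the AT2 samples, and 116 and 195 in the Club samples. Both Club samples were below the other 4. Mbl1 was 4.86-fold higher in BASC than in Club cells (limma adjusted p = 0.0162) and 4.50-fold higher in AT2 than in Club cells (adjusted p = 0.0108). Without BASC replicate 2 the first of these had an adjusted p of 0.0857, and without AT2 replicate 1 or AT2 replicate 2 the other had 0.0724 and 0.0587. A fit without a trend called neither (adjusted p = 0.0980 for BASC and 0.0728 for AT2). C1ra, a protease of the C1 complex, reached 27 and 50 in the BASC samples, 31 and 11 in the AT2 samples, and 233 and 184 in the Club samples. Both Club samples were above the other 4. C1ra was 9.93-fold lower in AT2 than in Club cells (adjusted p = 0.0224), a call lost without AT2 replicate 2 (0.0677), Club replicate 1 (0.170) or Club replicate 2 (0.115), and BASC against Club cells was not called (adjusted p = 0.0916).

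Among terminal components, C6, which joins C5b at the start of the membrane attack complex, had the same direction as Hc with a smaller difference. C6 reached 2875 and 2432 normalised counts in the BASC samples, 2565 and 2510 in the AT2 samples, and 1228 and 1327 in the Club samples. Both Club samples were the lowest. C6 was 2.08-fold higher in BASC than in Club cells (log2 fold change 1.05 ± 0.14, limma adjusted p = 0.00366) and 1.99-fold higher in AT2 than in Club cells (0.99 ± 0.14, adjusted p = 0.00293). A fit without a trend gave adjusted p of 0.0931 and 0.0785. The remaining terminal gene with a row, C8g, had 67 and 32 in BASC, was listed at 0 in both AT2 samples, and had 21 and 13 in Club cells. C8g was called lower in AT2 than in Club cells (adjusted p = 0.0361), at least 6.18-fold, a call lost in 4 of the 6 fits that left out a library (adjusted p from 0.0786 to 0.369). The C8g call was also lost in 5 other settings, among them a pseudocount of 10, at a log2 fold change of -1.42 (adjusted p = 0.138). It lay outside the rule for naming genes and was named after its values were seen.

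Of 7 tested genes listed as fluid-phase regulators and carboxypeptidases, 2 were higher and 2 lower in BASC than in Club cells, and 2 higher and 3 lower in AT2 than in Club cells. Over all genes tested, 5.77% were called higher and 5.42% lower in BASC, and 8.42% higher and 9.71% lower in AT2. Clu, which encodes clusterin, an inhibitor of the final pore, reached 1380 and 1567 in the BASC samples, 1091 and 1295 in the AT2 samples, and 2726 and 3251 in the Club samples. Both Club samples were above the other 4. Clu was 2.03-fold lower in BASC than in Club cells (adjusted p = 0.00866; 0.0652 without BASC replicate 1, 0.0573 without Club replicate 2 and 0.119 without a trend) and 2.51-fold lower in AT2 than in Club cells (adjusted p = 0.00170). Some markers of other cells were higher in Club samples as well. Msln, a mesothelial marker, reached 1 and 2 in the BASC samples, 0 and 0 in the AT2 samples, and 379 and 182 in the Club samples, and the ciliated sums given above were also highest there. Other markers were not: Col1a2, Col3a1, Pdgfra and Dcn were highest in AT2 replicate 1. Endothelial sums were 74 and 61 in Club samples and 75 to 106 in the others. The part of these cells in the values of Clu and C1ra was not tested.

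Cpm and Cpn1, carboxypeptidases that trim complement peptides, were called higher in BASC and in AT2 than in Club cells. Cpm, a membrane carboxypeptidase that removes the last arginine of C5a and other peptides, reached 16185 and 14871 normalised counts in the BASC samples, 18328 and 17054 in the AT2 samples, and 1652 and 1150 in the Club samples. Both Club samples were below the other 4 by a wide margin. Cpm was 11.1-fold higher in BASC (limma adjusted p = 4.55e-05) and 12.6-fold higher in AT2 (adjusted p = 1.91e-05) than in Club cells. Cpn1, the catalytic subunit of the soluble carboxypeptidase N, reached 59 and 90 in the BASC samples, 154 and 203 in the AT2 samples, and 12 and 12 in the Club samples. The 3 populations did not overlap, with AT2 highest. Cpn1 was 14.9-fold higher in AT2 than in Club cells (adjusted p = 0.00715). Against Club cells, BASC was 6.21-fold higher at an adjusted p of 0.0495, a call lost without any 1 of the 6 libraries (adjusted p from 0.0658 to 0.186) and in 5 other settings. Cpn2, its other subunit, had 19 and 36 in BASC, was listed at 0 in both AT2 samples, and had 40 and 18 in Club cells. Cpn2 was called lower in AT2 than in Club cells (limma adjusted p = 0.0226), with a 95% interval of the log2 fold change from -7.35 to -2.26. Its Club mean was 10.5 times the AT2 floor, which allows for counting error in AT2 only. This call was lost in the same 4 fits as that of C8g, at log2 fold changes from -5.36 to -4.25. It was also lost with a pseudocount of 10 (adjusted p = 0.0558). Like C8g, Cpn2 was named after its values were seen.

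Of the receptors, 4 of 10 listed genes were tested. C5ar2, a receptor for C5a that does not signal through G proteins, reached 82 and 165 normalised counts in the BASC samples, 188 and 117 in the AT2 samples, and 15 and 16 in the Club samples. The BASC and AT2 samples overlapped, above both Club samples. C5ar2 was 7.97-fold higher in BASC than in Club cells (limma adjusted p = 0.0331) and 9.84-fold higher in AT2 than in Club cells (adjusted p = 0.0150). The call in BASC was lost in 5 of the 6 fits that left out a library (adjusted p from 0.0507 to 0.132) and in a fit of the compared groups alone (0.0587), and that in AT2 was lost without AT2 replicate 1 (0.0766). C1qbp, a mitochondrial protein that can bind C1q, had between 270 and 323 in all 6 samples and was not called (adjusted p from 0.770 to 0.981). Susd4, an inhibitor of the classical convertase, reached 309 and 256 in the BASC samples, 480 and 403 in the AT2 samples, and 192 and 320 in the Club samples, and was not called (adjusted p from 0.130 to 0.791). C1qbp and Susd4 lay outside the naming rule and were chosen after their values were seen.

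**Figure D5:**
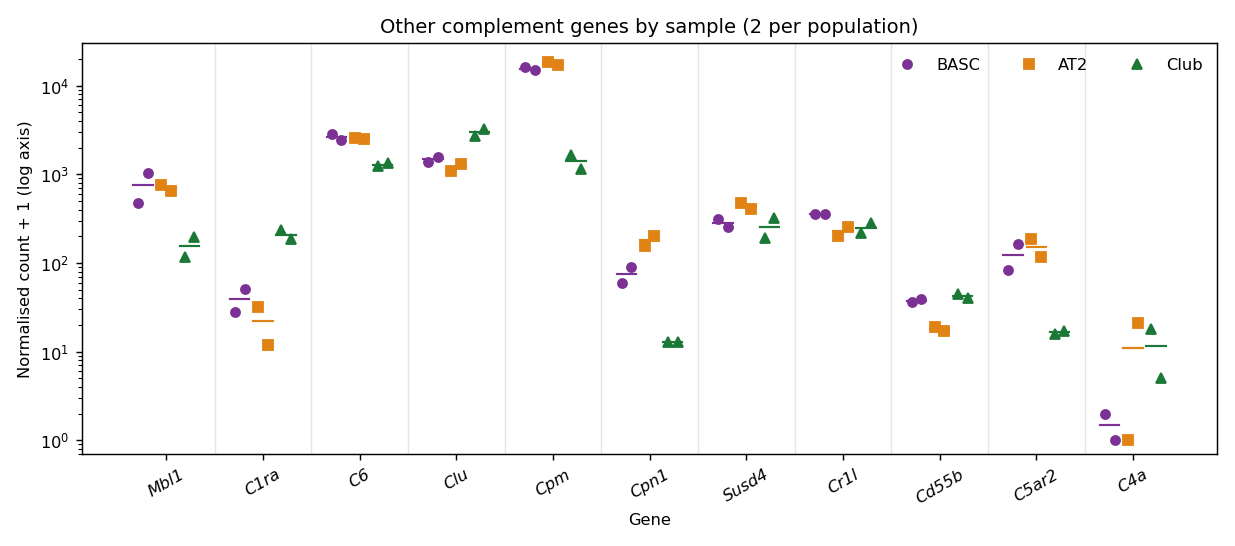
Normalised counts plus 1 of 11 other complement genes in every sample, on a log axis, with BASC as circles, AT2 as squares and Club cells as triangles; short lines are means of the 2 samples. Cpm, C6, Mbl1 and C5ar2 are higher in BASC and AT2 than in Club cells, and Clu is at 2726 and 3251 in Club cells, above the other 4 samples.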

How the data were processed

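RNA of 6 sorted samples (100 pg each) was sequenced after SMARTer Stranded Pico library preparation, per the labels. Reads were aligned with STAR 2.4.0a to GRCm38 (mm10) and counted with featureCounts 1.4.5-p1, per the submitters' processing notes; how the counts were normalised, which strand was counted and which annotation was used is not given in the sources used here. Per gene and sample, the deposited value is a score: read counts that the authors scaled by 1 factor per sample and rounded. This rests on the values, since whole numbers are missing or doubled at intervals that differ between samples. Because of the rounding, whole reads were not recovered and no count model was run. The lowest maximum of any gene was 7.

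A pseudocount of 1 was added before log2. The filter asked for 10 or more in 2 or more samples, which 17721 genes passed. These were fitted over all 6 samples with limma 3.58.1 (R 4.3.3), with a trend (3 residual and 4.20 prior degrees of freedom), after the code was tested on simulated data. P-values were 2-sided and adjusted by the Benjamini-Hochberg method over all genes tested, and an adjusted p under 0.05 was a call. A fold is a ratio of means, while a log2 fold change comes from the fit on the log2(value + 1) scale. For low genes these measures can differ in size and in direction. Serping1 had means of 60.5 in AT2 and 41.5 in Club cells, but a log2 fold change of -1.94 for AT2 against Club cells. Where a population was listed at 0, the log2 fold change depends on the pseudocount. Levels per kb used the union of all annotated exons of a gene in GENCODE M21, of the same build, which can be longer than any 1 transcript. The rule for names covered the 9 members, called complement genes averaging 100 or more in 1 group, the paralogs, and 3 nearest profiles per member averaging 1000 or more. A gene that the rule names is not reported here, though it enters the counts. The members and lists were chosen with earlier results of these data known. The 17 alternatives changed the pseudocount, filter, scaling, prior, samples in the fit or block, or left out 1 library.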

Additional observations from a re-analysis of the deposited data

How the results depend on the processing

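The calls of Hc and C3 against Club cells, and of Cd55 between AT2 and Club cells, held in all 17 alternatives, with log2 fold changes from 7.31 to 7.55 for Hc and -2.57 to -2.35 for C3 in BASC, and -2.33 to -1.69 for Cd55, and no member or other complement gene reversed a call. The sign of C3 between BASC and AT2, which was not called, turned to 0.05 under quantile normalization and 0.02 under scaling to the protein-coding total. Against Club cells, quantile normalization moved the median difference of all genes by 0.14 for BASC and 0.20 for AT2, and scaling to the protein-coding total moved it by -0.12 for AT2, under all of which the called members kept their direction. Of 112 genes called between BASC and AT2, the count became 176 with a pseudocount of 10, 265 with a filter of 50 and 196 with a robust prior. Without a trend, limma called 145 genes there, with 0 members and 1 other complement gene, C8g. At an unadjusted p under 0.05, 1 member was higher and 0 lower there, against 1110 and 862 of all genes tested. The same fit called 4 other complement genes in BASC against Club cells. In all, 1183 and 2028 genes were called against Club cells in BASC and AT2 without a trend. Leaving out 1 library gave 3 to 112 genes for BASC against AT2, 853 to 1888 for BASC against Club cells and 1539 to 3291 for AT2 against Club cells. It gave 0 to 1 members for BASC against AT2, while other complement genes called against Club cells numbered 3 to 6 for BASC and 6 to 11 for AT2. The cause of these changes was not tested, and where 1 sample was left in a population its spread was taken from the others. Same-numbered replicates did not deviate together by the set threshold of 0.1 (r from 0.006 to 0.012 over all genes tested and from 0.057 to 0.092 over 9395 genes with a mean of at least 100, which are not independent). With the replicate block, 120, 1861 and 3045 genes were called, members kept counts of 1, 2 and 3, and the calls against Club cells of Cpn1 for BASC and C8g for AT2 were lost. Without the filter Cfb was not called (adjusted p from 0.281 to 1). Alternatives for other complement genes were added after seeing the data; of 354 such values with a library left out 28 lost a call and 2 gained one, and of 654 under other settings 17 lost and 6 gained one. With 2 samples per group, genes under about 100 normalised counts have intervals of several log2 units.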

Other observations

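Coagulation genes stood beside complement in the depositors' KEGG annotation, and 42 of its 52 genes were tested. Against Club cells, 4 were higher and 7 lower in BASC, and 6 higher and 12 lower in AT2, complement members included, where 11.2% and 18.1% of all genes tested were called in either direction. The genes named here were chosen after their values were seen. F3, which encodes tissue factor, the starter of the extrinsic pathway, averaged 248 normalised counts over BASC, 279 over AT2 and 1322 over Club samples (limma adjusted p = 0.0110 for BASC and 0.00747 for AT2 against Club cells). Serpind1, which encodes heparin cofactor II, an inhibitor of thrombin, averaged 422 over BASC, 61 over AT2 and 77.5 over Club samples. It was called higher in BASC than in Club cells (adjusted p = 0.0153), and against AT2 it narrowly missed the threshold (adjusted p = 0.0574). F5, which encodes a cofactor of activated factor X, was listed at 0 in BASC and AT2 and averaged 101.5 in Club cells (adjusted p = 0.0176 and 0.0117).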
